A study of Mus musculus with 6 samples.

Results

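The genes described are 39 genes of glucose breakdown and of the response to low oxygen. They were read in cells sorted as GFP+ neural crest cells (NCCs) from mouse embryos at E11.25. The genes were chosen by name. They cover the steps from hexokinase to lactate dehydrogenase and the carriers of glucose and lactate. Also covered are the kinases that hold pyruvate out of the citric acid cycle and the enzymes that set fructose 2,6-bisphosphate. The oxygen sensing factors and some of their targets complete the list. Each symbol was matched through the Ensembl identifier to GENCODE M21, all 39 were found among the 46983 genes of the table, and all 39 passed the filter on low counts that left 13961 genes to test. RNAseq was performed on cells sorted from 3 control and 3 BAF155/170-deficient embryos. Controls carried Wnt1Cre/+ with 1 floxed and 1 wild-type allele of each of BAF155 (gene Smarcc1) and BAF170 (gene Smarcc2), and deficient embryos carried Wnt1Cre/+ with both alleles of each floxed. All 6 embryos also carried the Rosa26 mTmG reporter on 1 allele, which switches from a red to a green protein where Cre has acted, so that Cre and the loss of 1 copy of each subunit are common to both groups. Wnt1-Cre acts in the dorsal neural tube as well as in the neural crest, so a GFP+ cell need not be of crest origin.

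Glycolysis splits glucose into pyruvate, and lactate dehydrogenase turns pyruvate into lactate and so lets the pathway run without oxygen. Several of its steps have isozymes, products of different genes that catalyse the same reaction in different tissues. Hypoxia-inducible factors are made of an alpha subunit, Hif1a or Epas1, and a partner, Arnt. Prolyl hydroxylases (Egln genes) mark the alpha subunit for destruction while oxygen is present, and at low oxygen the factor binds short hypoxia response elements near its targets, among them most glycolytic genes, Slc2a1, Pdk1, Vegfa, Bnip3, Ankrd37 and the hydroxylase genes Egln1 and Egln3 themselves. Hif1a RNA itself does not report the activity of the factor, which is set largely at the protein.

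Promoters of 5 of these genes are shown because they are known targets of the factor, and because 4 of them (Pdk1, Egln1, Egln3, Ankrd37) varied together between libraries while the fifth, Ldha, was far more abundant and varied little. Each run is the 250 bases 5′ of a RefSeq transcript start (build GRCm38.p6), and the capitals mark the core letters of the hypoxia response element, ACGTG or GCGTG, searched on both strands. The runs lie at chr2:71872974-71873223 (plus strand), chr8:124949255-124949504 (minus strand), chr12:54203875-54204124 (minus strand), chr8:45999851-46000100 (minus strand) and chr7:46845554-46845803 (plus strand), and where RefSeq lists several starts, that with the most matches was taken.
Pdk1 promoter: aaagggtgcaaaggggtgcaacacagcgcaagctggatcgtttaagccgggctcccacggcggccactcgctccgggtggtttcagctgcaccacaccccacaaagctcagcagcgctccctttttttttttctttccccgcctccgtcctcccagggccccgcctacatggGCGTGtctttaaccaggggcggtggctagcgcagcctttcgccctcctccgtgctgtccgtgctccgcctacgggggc
Egln1 promoter: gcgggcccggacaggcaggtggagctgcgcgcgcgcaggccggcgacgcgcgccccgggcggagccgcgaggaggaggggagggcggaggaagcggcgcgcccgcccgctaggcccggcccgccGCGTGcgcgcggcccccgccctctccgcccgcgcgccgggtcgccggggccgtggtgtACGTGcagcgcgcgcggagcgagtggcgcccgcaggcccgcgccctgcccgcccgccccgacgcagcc
Egln3 promoter: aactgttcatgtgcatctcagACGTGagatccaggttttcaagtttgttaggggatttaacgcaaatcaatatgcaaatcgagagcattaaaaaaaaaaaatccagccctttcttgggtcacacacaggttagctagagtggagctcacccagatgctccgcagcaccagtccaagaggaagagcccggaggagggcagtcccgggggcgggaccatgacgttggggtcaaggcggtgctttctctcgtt
Ankrd37 promoter: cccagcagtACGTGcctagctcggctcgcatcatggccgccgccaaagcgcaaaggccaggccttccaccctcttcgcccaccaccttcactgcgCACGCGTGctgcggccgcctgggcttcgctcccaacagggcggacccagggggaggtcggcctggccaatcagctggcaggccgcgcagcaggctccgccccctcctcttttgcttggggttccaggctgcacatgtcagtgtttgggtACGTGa
Ldha promoter: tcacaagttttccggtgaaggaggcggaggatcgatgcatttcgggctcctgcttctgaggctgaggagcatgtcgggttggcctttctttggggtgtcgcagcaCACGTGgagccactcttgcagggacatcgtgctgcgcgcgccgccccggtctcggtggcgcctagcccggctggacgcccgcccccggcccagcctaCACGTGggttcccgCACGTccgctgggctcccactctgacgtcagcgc

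In the Ldha run the core occurs 5 times, counting both strands, because the palindrome CACGTG holds it once on each strand. In the Ankrd37 run ACGTG and GCGTG each occur 2 times, and the Egln1 run holds 1 of each. Of 57 promoter windows of 300 bases (250 before and 50 after the start) that RefSeq gives for 37 of the 39 genes, 28 held ACGTG (49.1%), against 19.6% of all 32851 windows of the same length. Either core was held by 44 of the 57 (77.2%), against 43.8% of all windows. The base composition of the windows was not compared, and a match is a description of the letters and no evidence of binding.

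Total counts ran from 8191219 to 19808620 reads per library, and the 10 most abundant genes took 21.8% to 35.0% of the counts in controls and 16.2% to 23.4% in deficient libraries. Values below are normalised read counts (CPM), the reads of a gene scaled to the TMM-normalised library size. The floxed gene Smarcc1 was at 42.1, 55.0 and 35.1 CPM in control replicates 1 to 3 and at 29.4, 26.4 and 24.5 CPM in the deficient replicates, a log2 fold change of −0.71 ± 0.16 (SE, adjusted p = 0.0676, edgeR). The call of Smarcc1 was lost with a correction for exon length, where its log2 fold change was −0.57. It was also lost without control replicate 1 or 2 or deficient replicate 2 or 3. The number of all tested genes lower at an adjusted p of at most 0.1 was 1082 with all 6 libraries. It was between 0 and 301 when any 1 of these was left out. Smarcc2 had a log2 fold change of −0.11 (adjusted p = 0.251). A count over the whole gene need not show the loss of the floxed part. Markers fixed for the labelled cell type were detected but low: the 14 mesenchymal crest genes (13 tested) summed to 190 to 302 CPM in controls and 120 to 150 CPM in deficient libraries. The 12 macrophage markers, Lyz2 and C1qb among them, summed to 11466 to 13248 CPM in controls and 13378 to 14628 CPM in deficient libraries, and none of them was at 0. All 12 had a higher mean in the deficient group, with log2 fold changes between 0.15 and 0.25, and 1 of them passed an adjusted p of 0.1. In these bulk libraries fewer cells of a type and less RNA per cell cannot be told apart. The levels and isozyme shares below are those of whole libraries and cannot be assigned to neural crest cells.

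No gene of the list was called different between control and BAF155/170-deficient libraries at the thresholds of the study. Changes beyond these thresholds are not excluded where the standard error was wide, as for Slc2a3 (log2 fold change 0.51 ± 1.07). A gene was called where its adjusted p was at most 0.1, its log2 fold change at least 0.58 in size and its mean at least 2 CPM. By this rule 0 of the 39 genes were called, while 4.88% of all tested genes were called lower and 0.0573% higher. These shares are 681 genes lower and 8 higher. The study, which used limma with these cut-offs, reported far more genes in both directions. The source of this gap was not tested. At an adjusted p of at most 0.1 alone, 7 of the 39 genes were higher in BAF155/170-deficient libraries (4.18% of all tested genes) and 0 were lower (7.75% of all tested genes). At an unadjusted p below 0.05, 14 were higher (12.1% of all tested genes) and 0 were lower (15.2% of all tested genes; edgeR). The 7 genes were Pfkp, Tpi1, Pgam1, Eno1, Ldha, Slc2a6 and Pfkfb3, with log2 fold changes between 0.18 and 0.27. Over all 39 genes the median log2 fold change was 0.17, with a range from −0.50 (Pfkfb1) to 0.51 (Slc2a3), and 32 had a higher and 7 a lower mean. Over all tested genes the median was −0.02.

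The count of 7 depended on single libraries and on the scaling. Leaving out control replicate 1, control replicate 2 or deficient replicate 3 left 0 genes, and leaving out deficient replicate 2 left 1. The count over all tested genes, 583 higher in the reported fit, moved as well: it was 0 in each of the first 3 of these fits and 113 without deficient replicate 2. The count of members was 7 again when deficient replicate 1 was dropped and 13 when control replicate 3 was dropped, where 1 gene, Ldhb, also passed as lower. Over all tested genes these fits gave 545 and 1724 higher. Without control replicate 3, 2021 of 14430 tested genes passed as lower. With libraries scaled to their totals instead of by TMM, 0 members passed, with 75 over all tested genes.

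Most abundant genes, members or not, had a higher mean in the deficient group. Of the 18 members at a mean of at least 50 CPM, a level chosen after the values were seen, 18 had a higher mean in the deficient group, the median log2 fold change being 0.18. Of all 2607 tested genes at that level 86.1% had a higher mean, with a median of 0.15, and 18.1% were higher at an adjusted p of at most 0.1, against 7 of the 18 members. The 21 members below 50 CPM had a median of 0.14, with 14 higher and 7 lower, where all 11354 tested genes below that level had a median of −0.09. The log2 fold changes of 16 of the 39 members (41.0%) lay within the range of the 12 macrophage markers, as did 14.8% of all tested genes. At 50 CPM or more this held for 10 of 18 members (55.6%) and for 43.3% of all tested genes. The part of the macrophage RNA in these levels and differences was not tested.

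**Figure D1:**
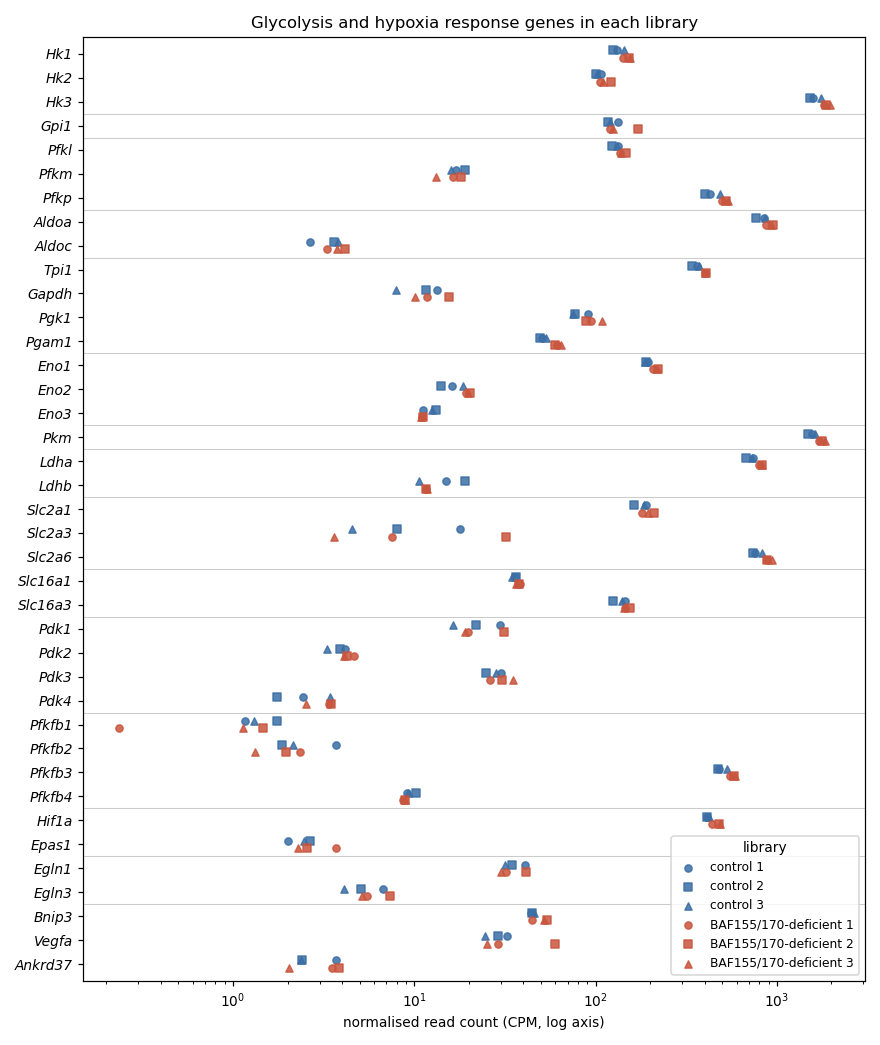
Normalised read counts (CPM, log axis) of the 39 genes in the 3 control (blue) and 3 BAF155/170-deficient (red) libraries, 1 point per library, with grey lines between groups of genes with the same role. Hk3 and Pkm lie above 1000 CPM in every library, Pfkfb1 has the lowest mean, and the widest spread within a group is that of Slc2a3.

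**Figure D2:**
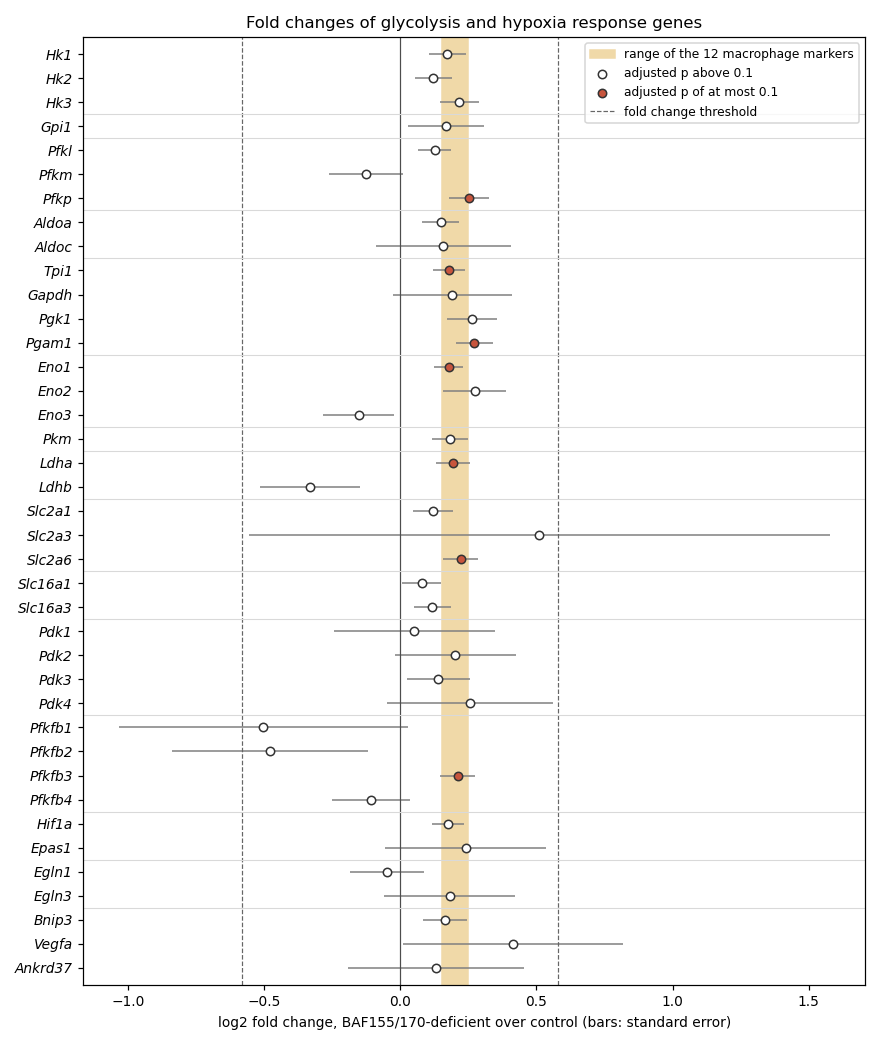
Log2 fold change of each gene in BAF155/170-deficient over control libraries, with its standard error, 3 libraries per group. The 7 filled points passed an adjusted p of 0.1, no point passes the dashed threshold of 0.58, and most abundant genes lie in or near the shaded range of the macrophage markers.

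Hexokinases trap glucose in the cell as glucose 6-phosphate. Hk3, an isozyme of blood cells of the myeloid line, was the most abundant: it was at 1573, 1520 and 1754 CPM in control embryos and at 1809, 1873 and 1953 CPM in deficient embryos. The groups did not overlap, and the log2 fold change was 0.22 ± 0.07 (SE), which missed the threshold (adjusted p = 0.1005, edgeR). The ubiquitous Hk1 had a mean of 142 CPM and the insulin-responsive Hk2 one of 108 CPM, and neither passed. Per kb of exon, Hk3 made up 93.0% ± 0.29 (SD, n = 3) of the hexokinase level in controls and 93.3% ± 0.29 in deficient libraries. Gpi1, which turns glucose 6-phosphate into fructose 6-phosphate, was at 133, 117 and 121 CPM in control embryos and at 120, 171 and 125 CPM in deficient embryos. Only deficient replicate 2 stood above the controls, and a near-identical gene copy, Gm1840, held counts of its own with a mean of 38.1 CPM.

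Phosphofructokinase makes the committed step. The platelet-type gene Pfkp was at 425, 402 and 483 CPM in control embryos and at 499, 523 and 539 CPM in deficient embryos. The groups did not overlap, with a log2 fold change of 0.25 ± 0.07 (adjusted p = 0.0842). The liver-type Pfkl (135 CPM) had a log2 fold change of 0.13 and the muscle-type Pfkm (16.6 CPM) one of −0.12, and neither passed (adjusted p = 0.2001 and 0.591). Aldoa, the widespread aldolase, was at 851, 768 and 865 CPM in control embryos and at 873, 955 and 927 CPM in deficient embryos. Its groups were separate by a small gap, and its log2 fold change of 0.15 did not pass (adjusted p = 0.180). The brain aldolase Aldoc was at 3.54 CPM.

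The lower part of the pathway handles the triose phosphates. Tpi1, triose phosphate isomerase, was at 361, 338 and 370 CPM in control embryos and at 403, 406 and 401 CPM in deficient embryos (log2 fold change 0.18 ± 0.06, adjusted p = 0.0949). Pgam1, the phosphoglycerate mutase of most tissues, was at 50.8, 49.5 and 52.9 CPM against 61.2, 59.6 and 64.5 CPM (log2 fold change 0.27 ± 0.07, adjusted p = 0.0672). Both genes had every deficient library above every control. Pgk1, phosphoglycerate kinase, had a log2 fold change of 0.26 and overlapping groups (adjusted p = 0.111). Gapdh, often taken as a stable reference, was at only 11.7 CPM and did not pass (log2 fold change 0.19, adjusted p = 0.609).

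Reads of several of these genes may be shared with copies. For Gapdh, 161 other genes, 155 of them pseudogenes, matched its transcript at 90% identity or more, and they held 44.3 CPM together, or 79.1% of the sum of Gapdh and its copies. The 3 copies of Pgam1 held 62.5% of their joint level, most of it in Pgam1-ps2, a pseudogene that itself passed as higher (log2 fold change 0.20, adjusted p = 0.0996). The copies of Eno1 held 27.7%, those of Pkm 9.51% and those of Pgk1 13.3%. With copies added, the log2 ratio of group means was 0.23 for Pgam1, 0.20 for Eno1 and 0.17 for Pkm, the groups still did not overlap in any of these, and for Gapdh it was −0.007. How reads that map to several places were counted is not given in the sources used here, so the levels of these genes are uncertain.

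Enolase and pyruvate kinase complete the pathway. Eno1, the widespread enolase, was at 194, 189 and 188 CPM in control embryos and at 208, 220 and 217 CPM in deficient embryos (log2 fold change 0.18 ± 0.05, adjusted p = 0.0901). Eno2, the enolase of neurons, was at 18.0 CPM with a log2 fold change of 0.27 (adjusted p = 0.154), and Eno3, that of muscle, at 11.6 CPM with one of −0.15 (adjusted p = 0.475). Pkm, pyruvate kinase, was at 1563, 1488 and 1628 CPM in control embryos and at 1714, 1764 and 1832 CPM in deficient embryos. Its groups did not overlap, yet its log2 fold change of 0.18 did not pass (adjusted p = 0.113). Counts per gene do not part the M1 and M2 splice forms of Pkm.

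Ldha, which favours lactate formation, was at 735, 674 and 725 CPM in control embryos and at 793, 823 and 825 CPM in deficient embryos, with no overlap (log2 fold change 0.19 ± 0.06, adjusted p = 0.0928). Ldhb, the heart-type subunit that favours pyruvate, was at 14.9, 19.0 and 10.6 CPM in control embryos and at 11.6, 11.7 and 11.7 CPM in deficient embryos. The controls spread on both sides of the deficient values, and the log2 fold change of −0.33 ± 0.18 did not pass (adjusted p = 0.270). Its adjusted p was 0.032 without control replicate 3, the library that was lowest among the controls. In that fit 2021 of 14430 tested genes were lower at an adjusted p of at most 0.1.

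Of the 3 glucose carriers on the list, Slc2a6 was by far the most abundant: 762, 734 and 824 CPM in control embryos and 879, 886 and 941 CPM in deficient embryos, with no overlap (log2 fold change 0.22 ± 0.07, adjusted p = 0.0856). The widespread carrier Slc2a1 was at 187 CPM and did not pass (log2 fold change 0.12, adjusted p = 0.309). Per kb, Slc2a6 made up 82.1% ± 1.15 of the 3 carriers in controls and 83.0% ± 1.57 in deficient libraries (SD, n = 3). Slc16a3, which exports lactate, was at 144, 125 and 139 CPM in control embryos and at 145, 156 and 143 CPM in deficient embryos, which overlap. Slc16a1, which carries lactate in both directions, was at 36.5 CPM, with log2 fold changes of 0.08 for it and 0.12 for Slc16a3 that did not pass.

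Pfkfb3, the isozyme that favours synthesis of fructose 2,6-bisphosphate and so drives phosphofructokinase, was at 481, 473 and 528 CPM in control embryos and at 548, 582 and 587 CPM in deficient embryos (log2 fold change 0.21 ± 0.06, adjusted p = 0.0893). The other three isozymes were scarce and had lower means: Pfkfb4 9.15 CPM (log2 fold change −0.11), Pfkfb2 2.23 CPM (−0.48) and Pfkfb1 1.177 CPM (−0.50). None of them passed. The groups of Pfkfb4 did not overlap, the only member whose deficient values all lay below the controls.

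The pyruvate dehydrogenase kinases switch off pyruvate dehydrogenase, by which pyruvate enters the citric acid cycle. Pdk3 led by level per kb, at 29.9, 24.7 and 28.4 CPM in control embryos and at 26.1, 30.3 and 35.0 CPM in deficient embryos. Its groups overlap, with a log2 fold change of 0.14 (adjusted p = 0.464). Pdk1, Pdk2 and Pdk4 had means of 22.9, 4.05 and 2.83 CPM and log2 fold changes of 0.05, 0.20 and 0.25, and none passed.

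In all, 14 of the 39 genes had groups without overlap and higher deficient values, against 15% of all tested genes, and 1 had such groups with lower deficient values, against 16.4%. Among tested genes at 50 CPM or more the first share was 48.5%, against 12 of the 18 members at that level. When each level was divided by the summed macrophage markers of the same library, a comparison chosen after the values were seen, the groups did not overlap with higher deficient values in 2 genes, Hk3 and Pfkp (differences of 0.03 and 0.07 on the log2 scale), against 1.37% of all tested genes. They did not overlap with lower deficient values in 2 genes, Eno3 (−0.34) and Pfkfb4 (−0.30), against 28.7% of all tested genes. The groups of Eno3 had overlapped before the division.

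Isozymes were contrasted within libraries, where the scaling of the library does not enter. Of 22 log2 ratios, 5 had groups that did not overlap. With 3 against 3 libraries the exact two-sided permutation test cannot go below p = 0.1, and after adjustment over the 22 pairs the smallest p was 0.44, so that no ratio passed. Eno3 relative to Eno1 was at −4.10, −3.83 and −3.90 in the controls and at −4.22, −4.28 and −4.30 in the deficient libraries, a difference of −0.33 in log2 ratio (exact permutation p = 0.1). Per kb, Eno3 made up 15.4% ± 1.27 (SD, n = 3) of the enolase level in controls and 12.5% ± 0.29 in deficient libraries. Pfkfb4 relative to Pfkfb3 was at −5.69, −5.52 and −5.82 against −5.97, −6.01 and −6.01, a difference of −0.32. Egln3 relative to Egln1 was higher, at −2.57, −2.73 and −2.91 against −2.51, −2.47 and −2.51, a difference of 0.24. In these 3 pairs the deficient libraries lay close together, on 1 side of all controls.

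Ldhb relative to Ldha was at −5.61, −5.14 and −6.08 in the controls and at −6.08, −6.12 and −6.12 in the deficient libraries, a difference of −0.50. Its gap rests on control replicate 3 by a hair, and the groups overlapped when a prior count of 0.5 replaced 2. Hk3 relative to Hk1 differed by only 0.04, with controls at 3.59, 3.61 and 3.60 and deficient libraries at 3.67, 3.62 and 3.65. The other hexokinase ratios overlapped, with differences of −0.06 for Hk2 to Hk1 and 0.10 for Hk3 to Hk2. The phosphofructokinase ratios overlapped as well, with differences of −0.26 for Pfkm to Pfkl, 0.13 for Pfkp to Pfkl and 0.39 for Pfkp to Pfkm. Aldoc to Aldoa differed by 0.01 and Eno2 to Eno1 by 0.11, both with overlapping groups (exact permutation p = 1.0 and 0.4). The leading isozyme was the same in every library of both groups: Hk3, Pfkp, Aldoa, Eno1, Ldha, Slc2a6, Slc16a3, Pdk3 and Pfkfb3 each held the largest share per kb among the isozymes of its family that are on the list. Hif1a did so in the pair with Epas1. Of the prolyl hydroxylases Egln1 exceeded Egln3 in every library, but Egln2, which is not on the list, had the highest mean, 23.5 CPM per kb against 9.76 for Egln1 and 2.12 for Egln3.

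**Figure D3:**
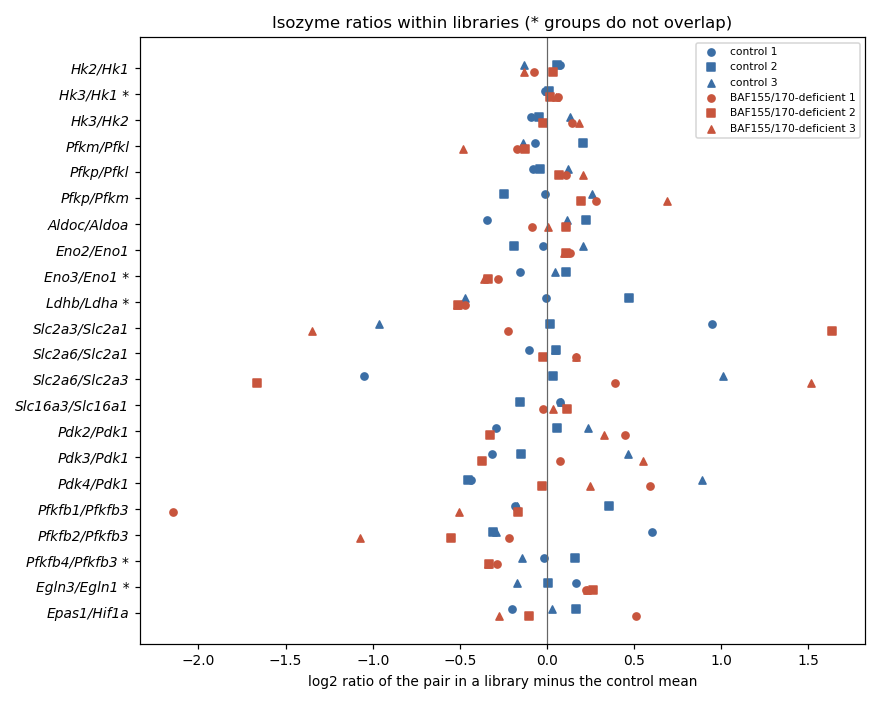
Log2 ratio of each of 22 isozyme pairs in each library, as the difference from the control mean of that pair (blue, control; red, BAF155/170-deficient). Pairs marked with an asterisk, 5 of 22, have groups that do not overlap, and the ratios with Slc2a3 and Pdk1 spread widely within both groups.

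Of the oxygen sensing factors, Hif1a was abundant, at 409, 413 and 420 CPM in control embryos and at 441, 478 and 483 CPM in deficient embryos. The groups did not overlap, and the log2 fold change of 0.17 ± 0.06 fell just short (adjusted p = 0.102). Epas1, the alpha subunit prominent in endothelium, was at 2.61 CPM and made up 0.60% ± 0.08 of the pair per kb in controls and 0.64% ± 0.20 in deficient libraries. Among 8 further regulators, all tested, 1 was called lower and 0 higher. This was Arnt2, a partner subunit expressed in the developing nervous system, at 13.8, 18.9 and 8.95 CPM in control embryos and at 8.15, 7.58 and 7.03 CPM in deficient embryos (log2 fold change −0.86 ± 0.24, adjusted p = 0.0828). Hif3a also passed the adjusted p (log2 fold change −1.68, adjusted p = 0.0964) but at a mean of 1.29 CPM was not called. Arnt2 was no longer called without control replicate 1 or 2 or without deficient replicate 2 or 3 (adjusted p = 0.247, 0.245, 0.159 and 0.275), and its log2 fold change ran from −1.10 to −0.58 when single libraries were left out. Hif3a lost its adjusted p without the same libraries. Over all tested genes the number lower at an adjusted p of at most 0.1 was 1082 in the reported fit. It was 0, 73, 301 and 19 without these libraries. The general partner Arnt had a log2 fold change of 0.04, the hydroxylase Egln2 one of 0.11 and Vhl, the ligase subunit that binds hydroxylated alpha subunits, one of −0.01, and none of these passed. In the same libraries 15 of 44 tested markers of crest, neurons, glia and neural tube were called lower and 0 higher, and their summed level was 326 to 601 CPM in controls and 209 to 283 CPM in deficient libraries. The part of this in the lower level of Arnt2 was not tested.

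Several targets of hypoxia-inducible factors varied widely within the groups. Slc2a3, a carrier with high affinity for glucose, was at 17.9, 8.03 and 4.51 CPM in control embryos and at 7.52, 31.9 and 3.61 CPM in deficient embryos. Vegfa, the angiogenic growth factor, was at 32.5, 29.0 and 24.5 CPM in control embryos and at 29.1, 60.1 and 25.2 CPM in deficient embryos. In both genes deficient replicate 2 stood above all other libraries and the other deficient libraries lay within or close to the controls. Their log2 fold changes of 0.51 ± 1.07 and 0.41 ± 0.40 did not pass (adjusted p = 0.805 and 0.569), and without deficient replicate 2 both turned negative, to −0.88 and −0.08.

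Pdk1 was at 29.7, 21.8 and 16.3 CPM in control embryos and at 19.7, 31.3 and 18.9 CPM in deficient embryos. Egln1 was at 40.6, 34.6 and 31.8 CPM in control embryos and at 32.0, 41.4 and 29.9 CPM in deficient embryos. In both, control replicate 1 and deficient replicate 2 were the highest of their groups and nearly level. Egln3 and Ankrd37 had the same 2 libraries highest, at low counts, with 7.33 and 3.85 CPM in deficient replicate 2. Bnip3, a mitophagy receptor, was at 44.2, 44.8 and 45.5 CPM in control embryos and at 44.8, 54.0 and 51.9 CPM in deficient embryos (log2 fold change 0.17, adjusted p = 0.209). Without deficient replicate 2 the log2 fold changes of Pdk1 (−0.22), Ankrd37 (−0.051) and Gpi1 (−0.0092) also became negative.

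**Figure D4:**
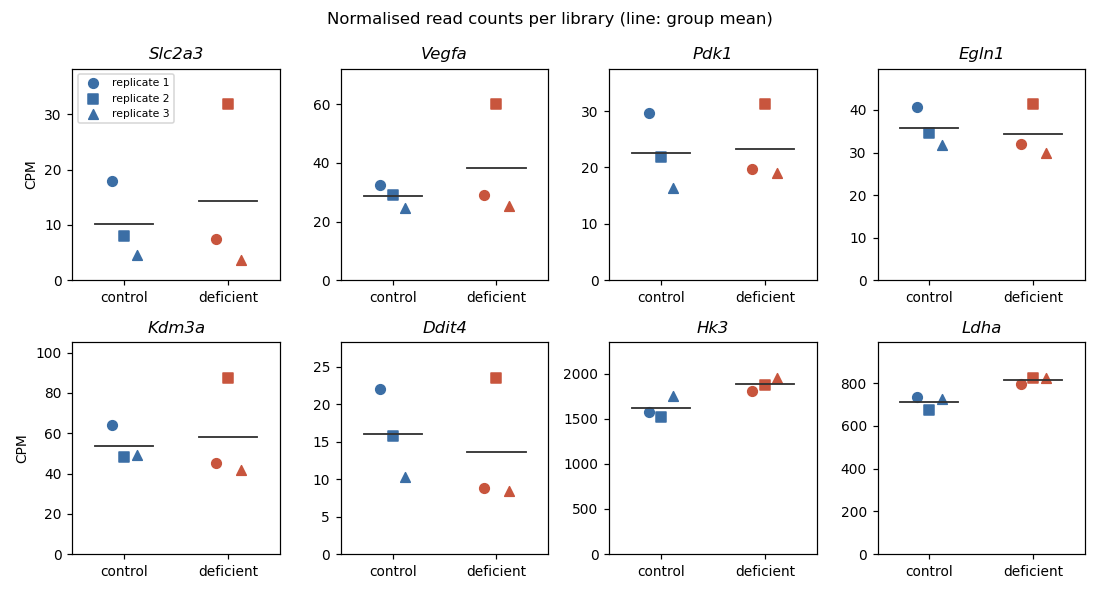
Normalised read counts (CPM) of 8 genes in each library, with the group mean as a line and a symbol for each replicate number. In Slc2a3, Vegfa, Pdk1, Egln1, Kdm3a and Ddit4 deficient replicate 2 is the highest of the 6 libraries, reaching 60.1 CPM for Vegfa. In Hk3 and Ldha the groups do not overlap.

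Counted over the list, deficient replicate 2 was the highest deficient library in 22 of the 39 genes (56.4%), against 30.2% of all tested genes. It exceeded the mean of the other two deficient libraries by 1.3 times or more in 9 of the 39 (23.1%), against 9.81% of all tested genes. Control replicate 1 was the highest control in 18 of the 39 (46.2%), against 26.1% of all tested genes. A separate list of 30 other targets of hypoxia-inducible factors, of which 29 were tested, had the same feature: deficient replicate 2 was the highest deficient library in 22 (75.9%) and at least 1.3 times the others in 12 (41.4%). Among them Kdm3a, a histone demethylase, was at 63.8, 48.3 and 49.3 CPM in control embryos and at 45.4, 87.5 and 41.9 CPM in deficient embryos, and Ddit4, an inhibitor of mTOR signaling, was at 22.02, 15.8 and 10.3 CPM against 8.77, 23.5 and 8.45 CPM. These 2 genes were picked after their values were seen. The median ratio of deficient replicate 2 to the mean of the other two deficient libraries was 1.24 for these targets, 1.04 for the 39 genes and 0.996 for all tested genes. For the macrophage markers it was 1.004, and deficient replicate 2 lay between the other deficient libraries in their sum (13963 CPM, against 13378 and 14628 CPM). Genes were counted here as a description of 1 library, which has no replicate of its own, and no test was made.

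**Figure D5:**
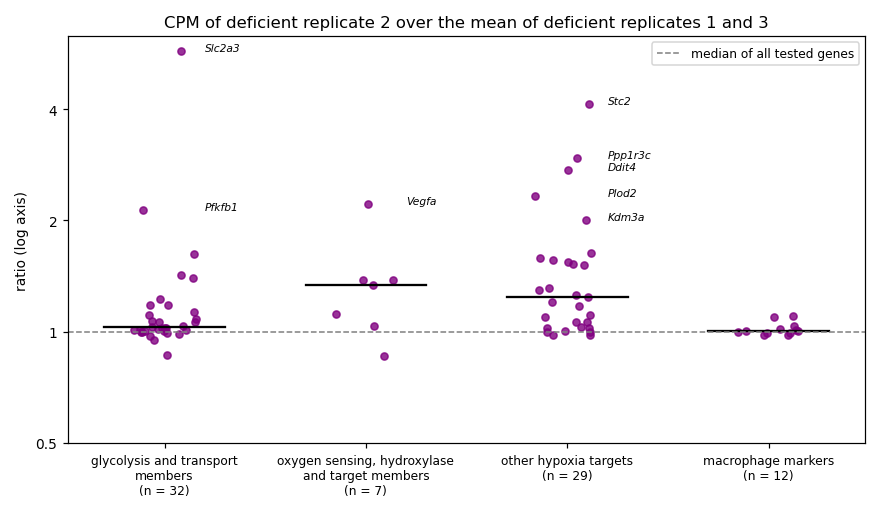
Ratio (log axis) of the CPM of deficient replicate 2 to the mean of deficient replicates 1 and 3, 1 point per gene, with the median of each list as a line. The median is 1.24 for the other hypoxia targets and 1.004 for the macrophage markers, and Slc2a3 has the highest ratio, 5.73.

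No gene of the remaining lists was called. In the separate list of 30 targets 0 were called in either direction and 0 passed an adjusted p of 0.1, at a median of 0.05 on the log2 fold change scale. Of 29 other genes of glycolysis, glucose synthesis and sugar transport, 15 were tested and 1 passed an adjusted p of 0.1: Pgm1, phosphoglucomutase, at 102, 90.3 and 102 CPM in control embryos and at 114, 115 and 116 CPM in deficient embryos (log2 fold change 0.23 ± 0.06, adjusted p = 0.0775), which it did not when control replicate 1 or 2 or deficient replicate 2 or 3 was left out. Of 9 genes by which pyruvate enters the mitochondrion and the citric acid cycle, 9 were tested and 0 passed, at a median of −0.07.

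Exons of 13 of the 39 genes overlap those of another gene. In 5 of them (Pfkm, Gapdh, Pfkfb1, Pfkfb2 and Ankrd37) the partner lies on the opposite strand and had a mean above 10% of that of the gene, as Ufsp2 at 16.9 CPM beside Ankrd37 at 2.99 CPM. The bases shared with these partners were from 0.54% (Pfkm) to 3.7% (Ankrd37) of the exon bases of the gene. The strand setting of the counting is not given in the sources used here, so the low counts of these 5 genes may hold some reads of the partner.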

How the data were processed

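GFP+ NCCs were sorted from 3 control and 3 BAF155/170-deficient embryos, and strand-specific poly(A) libraries were sequenced in paired-end mode. Per the methods and the submitters' processing notes, the authors trimmed adapters (cutadapt 1.18, with FastQC 0.11.7), aligned the reads with STAR (GRCm38) and counted them per gene with featureCounts. The deposited values are these raw counts, whole numbers that the authors did not normalize. The annotation release, the strand setting and the treatment of reads with several positions are not given in the sources used here. Of 46983 genes, 46488 have a name in GENCODE M21.

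The counts were fitted with edgeR 4.0.16 (R 4.3.3): filterByExpr (minimum count 10, minimum total 15), TMM, and a robust quasi-likelihood fit over all 6 libraries with condition as the only term, adjusted by Benjamini-Hochberg over 13961 genes. The common biological coefficient of variation was 12.8%. Standard errors come from the quasi-likelihood F statistic. Log2 ratios of isozymes used a prior count of 2 and an exact permutation test. Copies were matched with blastn 2.17.0 (at least 90% identity, 200 aligned bases and 50% of the copy). Alternatives were DESeq2 1.42.0, limma-voom (limma 3.58.1), library totals, other filters and thresholds, an exon length correction (lowess span 0.3), a replicate block, and each library left out.

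The genes and lists were chosen with earlier results of these data known. Every gene of the list is named. Values per library are given for each that was called, passed an adjusted p of 0.1, or had separate groups and moved by 0.3 or more on the log2 scale, and for the most abundant of each isozyme family. Other genes with values per library were picked after their values were seen. The methods give 3 embryos for the 3 samples of each group. Marker lists not given elsewhere had these summed levels in controls and deficient libraries: neutrophil 291 to 323 and 340 to 380 CPM, endothelial 175 to 197 and 201 to 213 CPM, and erythroid 23.1 to 76.0 and 17.7 to 24.9 CPM. Most of the neutrophil sum was Csf3r alone (274 to 301 and 313 to 354 CPM), and S100a8 was next with a mean of 11.0 CPM. Most of the endothelial sum was Kdr alone (165 to 186 and 190 to 203 CPM), and Pecam1 was next with a mean of 5.59 CPM. The pipeline was run on simulated counts with known changes far larger than those of the listed genes. That run does not show how well changes as small as these are read.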

Additional observations from a re-analysis of the deposited data

How the results depend on the processing

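In every alternative fit 0 of the 39 genes were called in either direction, except by an adjusted p of at most 0.1 alone, which takes 7 as higher. The number higher at an adjusted p of at most 0.1 was 7 in the reported fit, against 583 over all tested genes. It was 12 with DESeq2 (867 over all) and 13 with no filter on low counts (1369 of 32523). With a filter of 2 CPM in 3 libraries it was 3 (218 of 11817), and 0 with library totals (75). Without single libraries it lay between 0 and 13 (0 to 1724 over all). The number lower at that threshold lay between 0 and 1 without single libraries, against 0 to 2021 over all tested genes. The median log2 fold change of the 39 genes was 0.17, and 0.23 with library totals, 0.22 with no filter and 0.10 to 0.20 without single libraries. Genes with separate groups numbered 14 higher and 1 lower: 0 lower with library totals, 2 higher and 2 lower relative to the macrophage markers, 14 to 19 higher and 1 to 3 lower without single libraries. Isozyme pairs with separate groups numbered 5, and 5 to 12 without single libraries. A group that lacks a library separates more easily in any gene or pair, so these higher counts do not show firmer differences. Without single libraries, separate groups were not counted over all tested genes. Of the 39 genes, 32 kept their direction in every fit. The other 7 changed sign. Egln1 was at 0.011 with library totals and 0.0015 with no filter. Without single libraries the log2 fold change of Egln1 ran from −0.20 to 0.058, that of Pdk1 from −0.22 to 0.30, that of Slc2a3 from −0.88 to 1.23, that of Gapdh from −0.011 to 0.37, that of Gpi1 from −0.0092 to 0.26, that of Ankrd37 from −0.051 to 0.38 and that of Vegfa from −0.078 to 0.65. The lowest value came without deficient replicate 2 in each of these except Gapdh, where it came without control replicate 3. The cause was not tested. Among the other genes named, Vhl was at 0.0089 with DESeq2, 0.053 with library totals and 0.040 with no filter. Without single libraries Vhl ran from −0.098 to 0.055, Kdm3a from −0.30 to 0.31 and Ddit4 from −0.88 to 0.083.

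With the replicate number as a block (replicate block), 13 of the 39 genes were higher at an adjusted p of at most 0.1. Over all tested genes 1607 were higher in this fit, against 583 in the reported fit. The median of the 39 genes was 0.17. Deviations of samples with the same replicate number correlated at 0.028, −0.034 and 0.293. The column headers number the deficient samples differently. By the headers, control replicate 2 goes with deficient replicate 1 (correlation 0.261) and control replicate 3 with deficient replicate 2 (0.0004). Neither numbering was taken to pair the samples. Counts were low for some members, as for Pfkfb1 with 3 reads in deficient replicate 1, and their standard errors were wide (0.53 on the log2 scale for Pfkfb1).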
